A study of Danio rerio with 10 samples.

Results

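Matrix proteases and their inhibitors were followed in the chromatin of zebrafish eye muscle through 10 named genes: mmp2, mmp9, mmp13a, mmp13b, mmp14a, mmp14b, timp2a, timp2b, adam8a and plaub. A region belonged to a gene when the authors' region tables named the gene beside it, and 9 of the 10 genes had at least 1 region, among 24860 genes named in the tables. mmp13a was named beside none and has no value here. The genes had 33 of 41586 H3K27Ac regions, 15 of 18746 H3K4me3 regions and 20 of 18120 H3K27me3 regions. The lateral rectus, a muscle that turns the eye outward, was taken from uninjured adult fish (control) and from injured fish 9 or 18 hours after a segment of the muscle had been excised (9 and 18 hours post-injury, hpi). Fish were 4 to 18 months old, and the pools held tissue of 119 control fish, 192 fish at 9 hpi and 200 fish at 18 hpi. The fish are wild-type by the design text, while wild-type and α-actin::EGFP fish appear in the growth protocol; the second line carries a green fluorescent protein under a muscle actin promoter, and the genotype of each pool is not known from the labels. Each mark had 1 library per time, so no difference has a replicate check.

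Matrix metalloproteinases (MMPs) are zinc enzymes that are made as inactive proenzymes and cut collagens, gelatin and other proteins of the extracellular matrix. MMP2 and MMP9 are the gelatinases, MMP13 is a collagenase and MMP14 is anchored in the cell membrane, where together with TIMP2 it activates pro-MMP2. TIMPs are tissue inhibitors that block the active site of MMPs. ADAM8 is a membrane-anchored metalloprotease of leukocytes and other cells, and plaub encodes a urokinase-type plasminogen activator, which turns plasminogen into the protease plasmin. After muscle injury such enzymes open the matrix to incoming leukocytes and to muscle precursor cells. Acetylation of histone H3 at lysine 27 (H3K27Ac) marks active promoters and enhancers, trimethylation at lysine 4 (H3K4me3) marks promoters, and trimethylation at lysine 27 (H3K27me3) marks genes held silent by Polycomb proteins.

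Levels are average pileups, the mean number of overlapping sequence tags over a region. The start region of a gene is the region whose middle lies nearest the gene's start, wherever that is; it lay within 5000 bp for 8 of the 9 genes in H3K27Ac, 7 in H3K4me3 and 6 in H3K27me3. A change is a log2 ratio of average pileups after adding a pseudocount of 1, and a relative log2 change is that value less the median of all regions kept for the mark. For H3K27Ac this median was 0.23 at 9 hpi, −0.16 at 18 hpi and −0.35 for 18 against 9 hpi, and for H3K4me3 and H3K27me3 it lay between −0.054 and 0.026. Genes and regions counted as higher or lower, and those said to rise or fall, had a relative change of at least 2-fold. The comparisons ask which of these genes gained or lost a mark after injury and whether a change at 9 hpi was still there at 18 hpi. Coordinates are danRer10, and tag numbers per library are unknown.

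At 9 hpi, H3K27Ac at the start region rose at mmp9 and adam8a and fell at mmp14a and timp2a, while mmp2, mmp13b, mmp14b, timp2b and plaub stayed within 2-fold. These are 2 higher and 2 lower of 9, where 6.89% of all 21907 genes with a start region were higher and 9.14% were lower. As deposited, without that median subtracted, 2 were higher and 1 was lower, against 12.4% and 6.34% of all genes. The median relative log2 change was −0.37 over the 9 genes and 0.12 over all genes. At 18 hpi none of the 9 was past 2-fold in either direction, against 6.79% of all genes higher and 7.78% lower, and the median was −0.0066 over the 9 genes and 0.0009 over all genes; as deposited 1 was lower, timp2a, against 4.56% of all genes higher and 10.4% lower. Between 18 and 9 hpi none was past 2-fold, against 0.607% of all genes higher and 0.927% lower; as deposited 1 was lower at 18 hpi, mmp9, against 0.105% and 5.15%. H3K4me3 and H3K27me3 passed 2-fold at no start region of the 9 genes. For H3K4me3, 3.24% of all 21263 genes were higher and 2.6% lower at 9 hpi, 4.2% higher and 2.81% lower at 18 hpi, and 0.851% higher and 0.757% lower at 18 against 9 hpi. For H3K27me3, of 17153 genes, 0.431% were higher and 0.0874% lower at 9 hpi, 0.612% higher and 0.152% lower at 18 hpi, and 0.0233% higher and 0.0175% lower at 18 against 9 hpi.

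**Figure D1:**
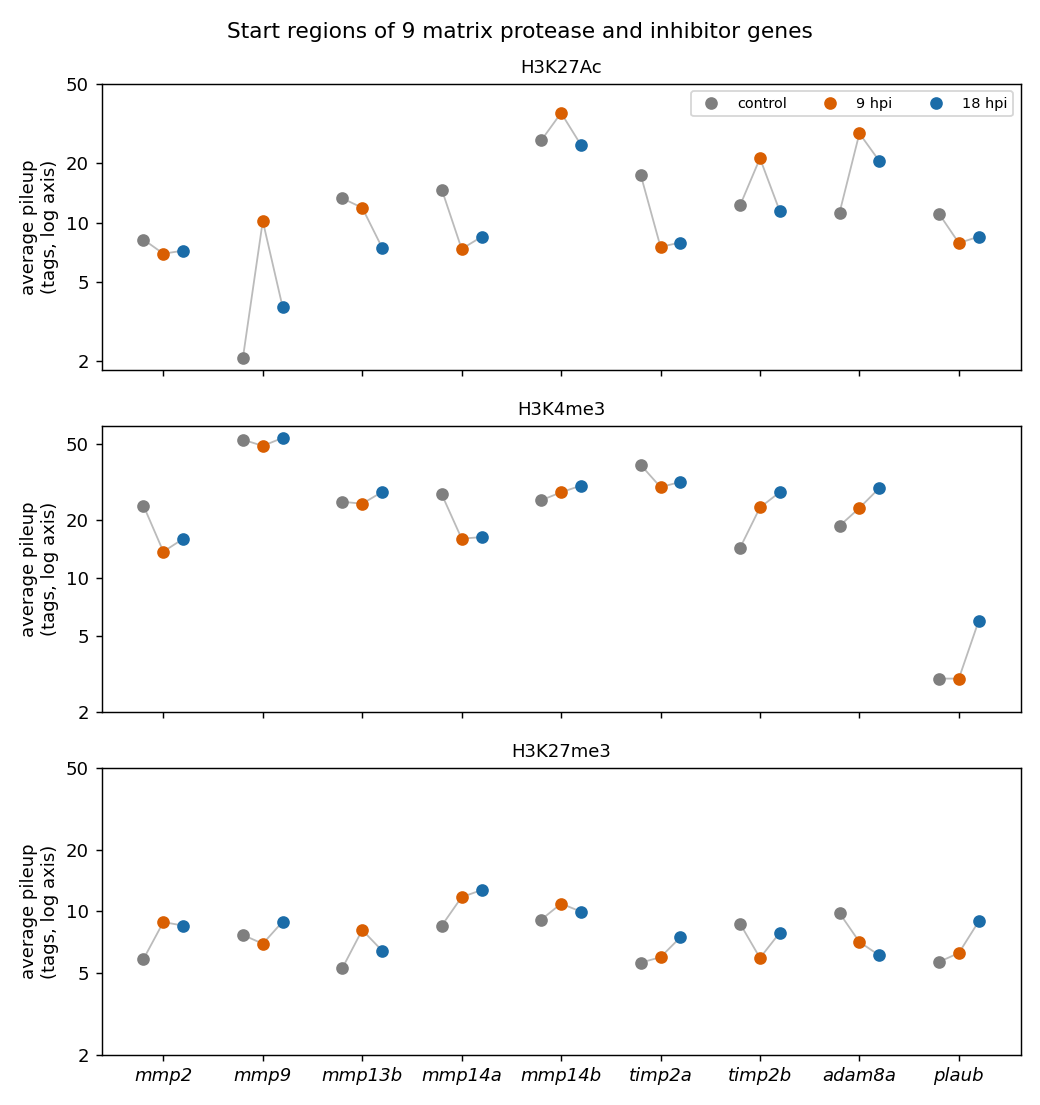
Average pileup (tags, log axis) at the start region of the 9 genes in the single library of each time, with control in grey, 9 hpi in orange and 18 hpi in blue, for H3K27Ac (top), H3K4me3 (middle) and H3K27me3 (bottom). mmp9 stands lowest in H3K27Ac in control at 2.08 and reaches 10.2 at 9 hpi. The H3K27Ac levels of mmp2, mmp13b, mmp14a, timp2a and plaub are highest in control.

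The gelatinase gene mmp9 gained H3K27Ac over its start and upstream of it at 9 hpi. Its start region (chromosome 8, 24260201 to 24262600) covers the gene start at 24260287 and reached an average pileup of 2.08 in control muscle, 10.2 at 9 hpi and 3.74 at 18 hpi. On the relative log2 scale it changed by 1.63 at 9 hpi and, below 2-fold, by 0.78 at 18 hpi. A region whose middle lies 2887 bp upstream (24255801 to 24259000) had 1.75 in control muscle, 12.4 at 9 hpi and 3.80 at 18 hpi. Another, 7087 bp upstream (24251601 to 24254800), had 1.89 in control muscle, 13.3 at 9 hpi and 4.74 at 18 hpi. All 3 regions were high at 9 hpi, intermediate at 18 hpi and lowest in control, and the authors called an interval in each at 9 hpi only. They are in the region table through that interval alone, so a low control level and a high level at 9 hpi come with their being listed. Over all H3K27Ac regions with a gene name, 6.91% had an interval at 9 hpi only. The farthest upstream region was still higher at 18 hpi (relative log2 change 1.15, and 0.99 as deposited, just under 2-fold), and the middle one was lower at 18 than at 9 hpi (−1.13). With a pseudocount of 5 the relative change of the start region at 9 hpi was 0.92, below 2-fold.

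H3K4me3 had no region over the mmp9 start at any of the 3 times. The one H3K4me3 region named for mmp9 (24272801 to 24277400) lies with its middle 14813 bp downstream of the start and had 52.6 in control muscle, 48.8 at 9 hpi and 53.7 at 18 hpi. An H3K27Ac region overlaps it (24275201 to 24278200), with 77.4 in control muscle, 104 at 9 hpi and 65.3 at 18 hpi, a relative log2 change of 0.20 at 9 hpi. In H3K27Ac that place was the highest of the 33 regions of the 9 genes at all 3 times. It changed by less than 2-fold in both marks and holds no promoter in the authors' annotation. H3K27me3 lay over the mmp9 start at all 3 times: the region at 24260201 to 24262400 had 7.68 in control muscle, 6.95 at 9 hpi and 8.91 at 18 hpi. The bounds of this region and of the H3K27Ac start region share their first base, and at 9 hpi the authors called intervals of both marks over the same start. The H3K27me3 interval there was 2200 bp long in control, 1000 bp at 9 hpi and 2200 bp at 18 hpi.

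**Figure D2:**
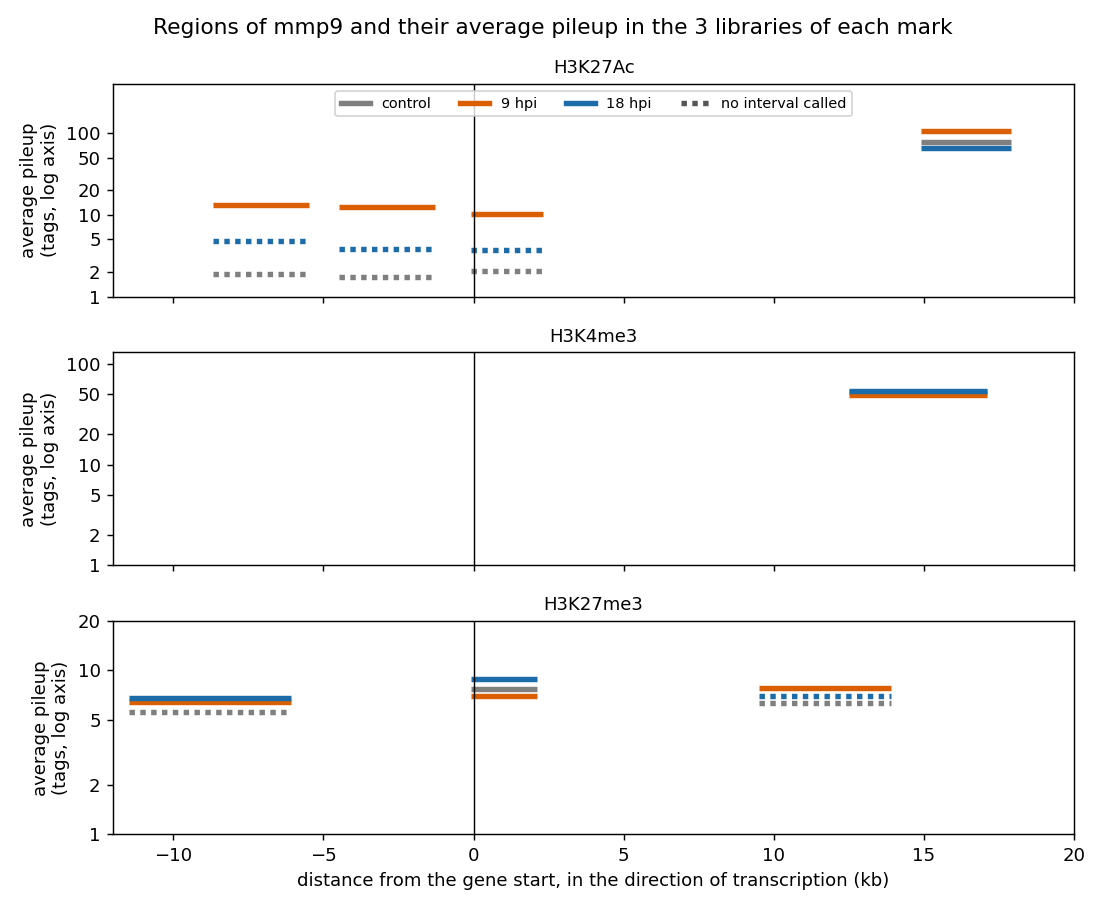
Regions named for mmp9 by distance from its start (kb, horizontal) and average pileup (tags, log axis) in control (grey), at 9 hpi (orange) and at 18 hpi (blue), with dotted bars where no interval was called. The 3 H3K27Ac regions at and upstream of the start reach 10.2 to 13.3 at 9 hpi, while the region downstream stays above 65 at all times.

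mmp2, the other gelatinase gene, moved the other way in part. Its H3K27Ac start region (chromosome 7, 35151401 to 35164400) covers the start at 35161341 and had 8.21 in control muscle, 6.97 at 9 hpi and 7.22 at 18 hpi, with relative log2 changes of −0.44 and −0.0066. Inside the gene, 13441 bp from the start (35146001 to 35149800), H3K27Ac fell to 6.96 at 9 hpi and 5.09 at 18 hpi, against 17.01 in control. The relative log2 change there was −1.41 at each time, and no interval was called at 18 hpi. A weaker region 20941 bp from the start (35139001 to 35141800) had 7.16 in control muscle, 3.38 at 9 hpi and 6.46 at 18 hpi, low at 9 hpi only. Both of these regions lie nearer the start of the neighbouring gene lpcat2. At the start itself, H3K4me3 (35158001 to 35162200) was 23.9 in control muscle, 13.7 at 9 hpi and 16.04 at 18 hpi. H3K27me3 there (35156201 to 35163200) was 5.85 in control muscle, 8.87 at 9 hpi and 8.52 at 18 hpi. The H3K4me3 change at 9 hpi, −0.70, was above that of 5.2% of genes, and the H3K27me3 change, 0.53, was above that of 96.4%, both under 2-fold. H3K27me3 intervals in this region added up to 3400 bp in control, 7000 bp at 9 hpi and 5400 bp at 18 hpi.

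Of the collagenase genes, mmp13b had H3K27me3 and no other mark at its start. Its start at chromosome 15, 33976673 lies in an H3K27me3 region (33975401 to 33979800) with 5.28 in control muscle, 8.11 at 9 hpi and 6.43 at 18 hpi. A neighbouring region 5927 bp upstream (33980601 to 33984600) had 6.76 in control muscle, 14.2 at 9 hpi and 12.03 at 18 hpi. Its relative log2 change of 0.98 at 9 hpi was the greatest in H3K27me3 among the 20 regions of the 9 genes. All 4 H3K27me3 regions of mmp13b had positive relative changes at 9 hpi, from 0.49 to 0.98, and at 18 hpi, from 0.13 to 0.77. Intervals were called in 1 of the 4 in control, in 4 at 9 hpi and in 2 at 18 hpi. The regions away from the start, among them the one 5927 bp upstream, are listed only through intervals after injury. A low control level thus comes with their being listed. The nearest H3K27Ac and H3K4me3 regions have their middles 10227 and 10327 bp upstream, nearer the start of inpp5ka, and had 13.2, 11.9 and 7.47 in H3K27Ac and 25, 24.4 and 28.1 in H3K4me3 in control, at 9 hpi and at 18 hpi. They describe the surroundings of mmp13b and not its promoter.

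The duplicate genes of the membrane-type protease, mmp14a and mmp14b, had different chromatin after injury. At mmp14a, H3K27Ac over the start (chromosome 7, 23871001 to 23879400, gene start 23878475) fell to 7.36 at 9 hpi, against 14.7 in control, and was 8.47 at 18 hpi. The relative log2 changes were −1.13 and −0.57; at 9 hpi the change was −0.90 as deposited and −0.85 with a pseudocount of 5, both below 2-fold. H3K4me3 over the start (23874001 to 23878800) was 27.3 in control muscle, 16.1 at 9 hpi and 16.4 at 18 hpi, relative log2 changes of −0.68 and −0.67. Within the called H3K4me3 interval the average was 27.3 in control, 16.6 at 9 hpi and 27.8 at 18 hpi. These intervals were 4800, 4400 and 2600 bp long, with maxima of 104, 64 and 77. H3K27me3 (23860201 to 23882000) was 8.52 in control muscle, 11.7 at 9 hpi and 12.7 at 18 hpi, relative log2 changes of 0.42 and 0.55. By the regional averages control was thus highest in both active marks and lowest in H3K27me3. At 18 hpi the lower H3K4me3 average goes with a shorter interval. Upstream, 4025 bp from the mmp14a start and nearer the start of lrp10, a region (23880201 to 23884800) had 21.04 in control muscle, 35.4 at 9 hpi and 17.8 at 18 hpi in H3K27Ac.

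At mmp14b, H3K27Ac over the start (chromosome 2, 38177801 to 38184000, gene start 38178811) was 25.9 in control muscle, 35.6 at 9 hpi and 24.6 at 18 hpi. The relative log2 changes were 0.22 and 0.085, both within 2-fold. A region inside the gene 10489 bp from the start (38185401 to 38193200) had 24.1 in control muscle, 36.1 at 9 hpi and 26.5 at 18 hpi, also within 2-fold. Upstream, at a middle distance of 8711 bp and next to other gene starts (38164601 to 38175600), H3K27Ac was 10.5 in control muscle, 20.6 at 9 hpi and 17.4 at 18 hpi. H3K4me3 over the start (38178401 to 38183200) was 25.5 in control muscle, 27.99 at 9 hpi and 30.3 at 18 hpi. An H3K27me3 region of 43000 bp (38136401 to 38179400), named for 5 genes, ends 588 bp past the start and had 9.11 in control muscle, 10.9 at 9 hpi and 9.97 at 18 hpi. The level of H3K27Ac at mmp14b in control was above that of 73.7% of genes, and that at mmp14a above 38.6%. The difference between the duplicates was not tested.

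The inhibitor genes timp2a and timp2b also parted. At timp2a, a short region with its middle 3772 bp upstream of the start (chromosome 12, 33937401 to 33938800, gene start 33934328) fell to 7.54 in H3K27Ac at 9 hpi, against 17.4 in control, and was 7.93 at 18 hpi. The relative log2 changes were −1.34 and −0.89, and the authors called an interval there in control and at 18 hpi. The region that covers the start (33922601 to 33936000) is broad, so its middle lies farther off, and it had 10.5 in control muscle, 11.98 at 9 hpi and 11.02 at 18 hpi. Its relative log2 changes of −0.053 and 0.22 were within 2-fold, so the fall concerns the upstream region and not the promoter. Past the gene, 52028 bp from the start and nearer that of sfxn2, a region (33880801 to 33883800) rose to 7.73 at 18 hpi, against 3.16 in control, a relative log2 change of 1.23, and had 5 at 9 hpi. H3K4me3 over the start (33931401 to 33936000) was 38.9 in control muscle, 29.8 at 9 hpi and 31.7 at 18 hpi. H3K27me3 over the start (33933601 to 33938000) was 5.62 in control muscle, 5.98 at 9 hpi and 7.48 at 18 hpi, with an interval at 18 hpi only.

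At timp2b, H3K27Ac over the start (chromosome 3, 57592201 to 57597200, gene start 57595995) was 12.2 in control muscle, 21.05 at 9 hpi and 11.4 at 18 hpi, relative log2 changes of 0.51 and 0.066. A region 3505 bp upstream (57598601 to 57600400) rose to 14.3 at 9 hpi and to 7.49 at 18 hpi, against 2.80 in control. The relative log2 changes there were 1.78 and 1.32, and an interval was called at 9 hpi only. The region is listed through that interval alone, so a low control level comes with its being listed. A region inside the gene 14195 bp from the start (57581001 to 57582600) had 6.83 in control muscle, 17.3 at 9 hpi and 9.82 at 18 hpi; the relative change of 0.996 at 9 hpi lay just under 2-fold. H3K4me3 over the start (57592001 to 57596600) was 14.4 in control muscle, 23.3 at 9 hpi and 28.04 at 18 hpi, the largest H3K4me3 change among the 9 genes (0.72 and 0.95, above 94.0% and 95.4% of genes). Within the called interval at the start the average was 22.3 in control, 23.3 at 9 hpi and 29.3 at 18 hpi. These intervals were 2600, 4600 and 4400 bp long, with maxima of 134, 152 and 163. The change of the regional average thus goes with longer intervals. H3K27me3 over the start (57594401 to 57597000) was 8.71 in control muscle, 5.93 at 9 hpi and 7.88 at 18 hpi, and no interval was called at 9 hpi. At 9 hpi timp2b was thus above control in H3K27Ac and H3K4me3 and below it in H3K27me3, while at 18 hpi H3K27Ac at the start was near control and H3K4me3 was at its highest.

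At adam8a all 3 H3K27Ac regions rose at 9 hpi, and 2 of them were still higher at 18 hpi. The start region (chromosome 13, 24536801 to 24544200, gene start 24538646) had 11.2 in control muscle, 28.1 at 9 hpi and 20.4 at 18 hpi, relative log2 changes of 1.03 and 0.97. A region with its middle 10654 bp past the start (24545001 to 24553600) had 3.26 in control muscle, 12.4 at 9 hpi and 14.2 at 18 hpi, relative log2 changes of 1.42 and 1.99. The broad region beyond it (24555401 to 24574800) had 4.99 in control muscle, 21.1 at 9 hpi and 19.01 at 18 hpi, relative log2 changes of 1.66 and 1.90. Control was lowest in all 3 regions. The regions are shared with neighbouring genes: the middle of the start region lies 1691 bp from the start of znf511, and the other 2 lie nearer zgc:66426. The start region's maximum pileup was 87 in control muscle, 168 at 9 hpi and 85 at 18 hpi, so at 18 hpi the average was higher over a similar maximum; by the maximum the relative change at 9 hpi was 0.49, and with a pseudocount of 5 it was 0.85. The intervals of the start region covered 1800 bp in control, 6000 bp at 9 hpi and 6600 bp at 18 hpi. The maximum lay 11 bp past the gene start in control, 2475 bp past it at 9 hpi and 2539 bp past it at 18 hpi. The interval over the start had an average of 49.5 and a maximum of 87 in control, over 1000 bp. At 18 hpi it had 22.2 and 74, over 3200 bp. The rise thus concerns the region as a whole, and a rise at the start itself is not shown.

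Within 2-fold, the average pileup of H3K4me3 over the adam8a region was above control and that of H3K27me3 below it at both times. H3K4me3 over the start (24536401 to 24546600) was 18.7 in control muscle, 23.2 at 9 hpi and 29.4 at 18 hpi, relative log2 changes of 0.35 and 0.66. Its maximum pileup ran the other way, with 163 in control muscle, 139 at 9 hpi and 154 at 18 hpi. In control the H3K4me3 interval at the start ran from 24536401 to 24539800, with another interval of 1600 bp inside the gene. At 9 hpi 1 interval of 8800 bp and at 18 hpi 1 of 9600 bp spanned the gap between them. The summit lay 21 bp before the start in control and at 9 hpi and 2507 bp inside the gene at 18 hpi. H3K27me3 inside the gene (24538801 to 24546800) was 9.81 in control muscle, 7.09 at 9 hpi and 6.10 at 18 hpi, and no interval was called there at 18 hpi. Its relative log2 changes of −0.42 and −0.58 were above those of 5.0% and 2.2% of genes. All 4 H3K27me3 regions of adam8a had negative relative changes at both times, from −0.56 to −0.091 at 9 hpi and from −0.58 to −0.098 at 18 hpi. The long H3K27me3 region upstream (24514201 to 24536400), nearer the homeobox gene msxc, had 24.05 in control muscle, 22.5 at 9 hpi and 21.1 at 18 hpi.

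**Figure D3:**
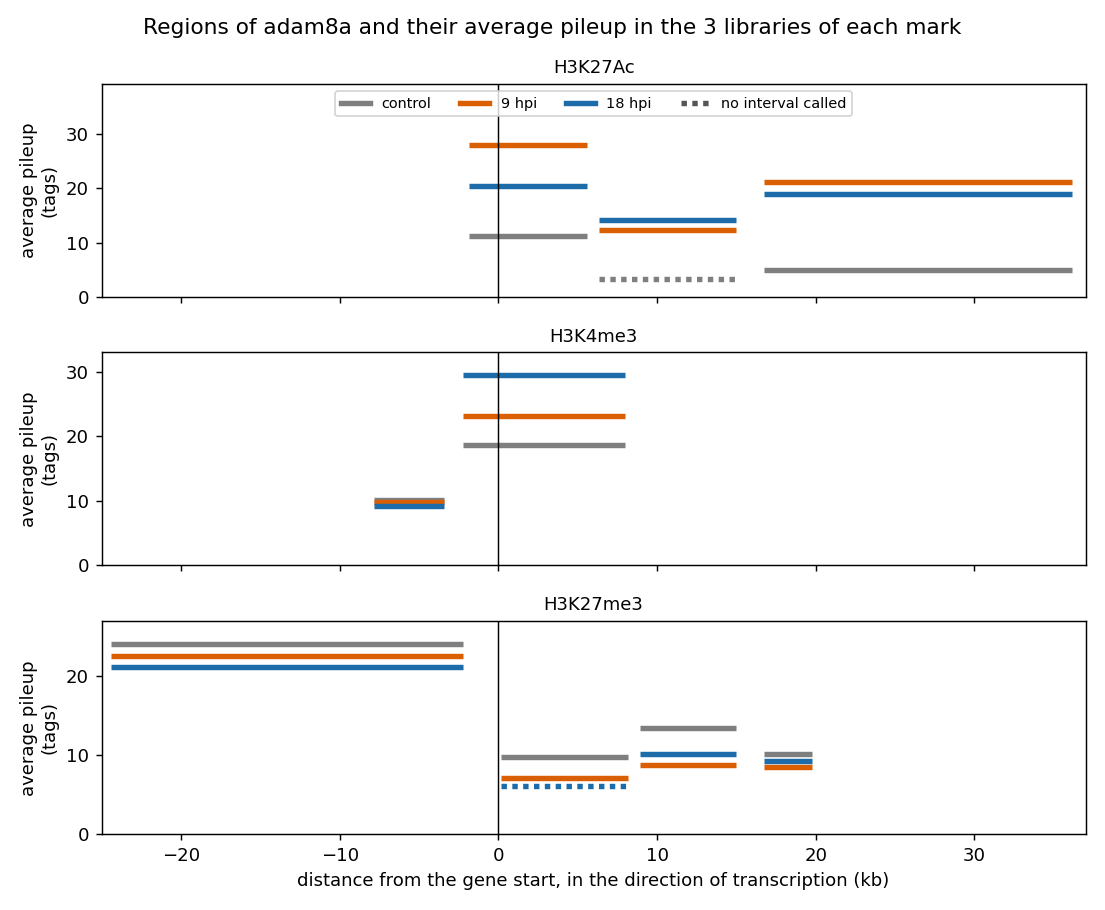
Regions named for adam8a by distance from its start (kb, horizontal) and average pileup (tags, vertical, from 0) in control (grey), at 9 hpi (orange) and at 18 hpi (blue), with dotted bars where no interval was called. Control is lowest in all 3 H3K27Ac regions and highest in all 4 H3K27me3 regions.

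No region of the plasminogen activator gene plaub passed the 2-fold threshold, which for its weak H3K4me3 region rests on the pseudocount. Its H3K27Ac start region (chromosome 12, 46746801 to 46748000, gene start 46747362) had 11.1 in control muscle, 7.89 at 9 hpi and 8.49 at 18 hpi, and an interval was called in control only. The relative log2 changes were −0.67 and −0.19, within 2-fold. H3K4me3 did not cover the start; the nearest region, 3638 bp inside the gene (46750201 to 46751800), had 3 in control muscle, 3 at 9 hpi and 6 at 18 hpi, with an interval at 18 hpi only. Its relative log2 change at 18 hpi was 0.84, and 1.01 with a pseudocount of 0.1, past 2-fold. The nearest H3K27me3 region lies 33938 bp downstream and does not describe the start.

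Over every H3K27Ac region of the 9 genes, 7 of 33 were higher and 5 lower at 9 hpi, where 7.9% of all regions with a gene name were higher and 18.7% lower. The 7 were the 3 at and upstream of the mmp9 start, the 3 of adam8a and the upstream region of timp2b. The 5 were 2 of mmp2, 2 of mmp14a and 1 of timp2a. At 18 hpi 5 were higher, 2 of them at adam8a and 1 each at mmp9, timp2b and timp2a, and 1 was lower, at mmp2, against 11.1% and 12.8% of all regions. As deposited, 9 were higher and 2 lower at 9 hpi (13% and 13.2% of all regions), with 2 more of timp2b higher and those of mmp14a and 1 of mmp2 no longer lower. At 18 hpi 4 were higher and 2 lower as deposited (7.68% and 16.8%). At 18 against 9 hpi, 1 was higher, at mmp2, and 1 lower, at mmp9, against 2.24% and 1.02%; as deposited none was higher and 3 were lower, all at mmp9, against 0.416% and 4.46%. Intervals were called at all 3 times in 20 of the 33 regions (52.5% of all regions with a gene name), in control only in 3 (19.1%), at 9 hpi only in 4 and at 18 hpi only in 1 (4.07%). The 3 control-only regions were 1 of mmp2 and 2 of plaub, and the 4 at 9 hpi only were 3 of mmp9 and 1 of timp2b. An interval at 9 hpi and none in control was found in 7 of the 33 regions, 3 at mmp9, 2 at timp2b and 1 each at timp2a and adam8a, against 15.5% of all regions. Regions of 1 gene share their neighbourhood and are not independent. A region is listed through its intervals, so a low control level comes with the listing of those without a control interval. Among the regions counted as higher on the relative scale, these were the 3 of mmp9, the upstream region of timp2b, 1 of adam8a and that of timp2a. The control-only region of mmp2, counted as lower at 9 hpi, was in turn listed through control alone. In H3K4me3, intervals were called at all 3 times in 14 of 15 regions (82.7%) and at 18 hpi only in 1, at plaub (3.2%). In H3K27me3 they were called at all 3 times in 10 of 20 regions (58.6%), at 9 hpi only in 3 (4.91%), 2 of mmp13b and 1 of mmp9, and at 18 hpi only in 2 (6.38%), of timp2a and plaub. No H3K4me3 region of the 15 and no H3K27me3 region of the 20 was past 2-fold at either time; of all regions with a gene name, 3.6% were higher and 3.57% lower in H3K4me3 at 9 hpi, 4.99% and 3.66% at 18 hpi, 0.866% and 0.172% in H3K27me3 at 9 hpi and 1.2% and 0.225% at 18 hpi.

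**Figure D4:**
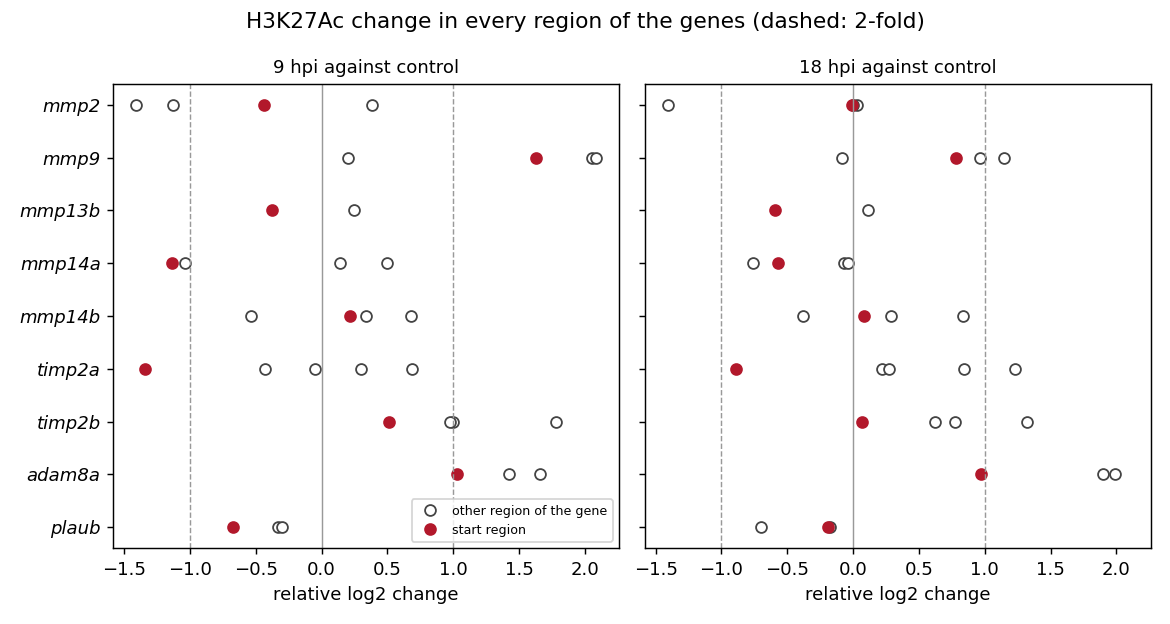
Relative log2 change of H3K27Ac (horizontal) in each of the 33 regions of the 9 genes (rows) at 9 hpi (left) and 18 hpi (right) against the shared control library, with filled points for start regions and open points for the others. The dashed lines mark 2-fold; mmp9 and adam8a hold 6 of the 7 regions past it on the right side at 9 hpi.

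Set side by side at 9 hpi, the relative changes of the active marks and of H3K27me3 in the start regions had opposite signs at several genes. On this scale both active marks were below control and H3K27me3 above it at mmp2, mmp14a and timp2a. This was so at 14.2% of the 13761 genes with a start region in all 3 marks. As deposited, mmp13b had this pattern too, as had 11.4% of those genes. At timp2a the H3K27Ac value is that of the upstream region. The H3K27Ac region over its start had 10.5 in control muscle and 11.98 at 9 hpi. The H3K27me3 region of timp2a had 5.62 in control muscle and 5.98 at 9 hpi, with no interval called at either time. Both active marks were above control and H3K27me3 below it at adam8a and timp2b, as at 19.3% of those genes (18.6% as deposited). Of the 15 relative changes at mmp2, mmp14a, timp2a, adam8a and timp2b, 3 passed 2-fold, all in H3K27Ac. They were at mmp14a, timp2a and adam8a, and at mmp2 and timp2b no mark passed 2-fold. H3K4me3 at mmp9, mmp13b, mmp14b and plaub changed least at 9 hpi, from −0.052 to 0.19 on the relative log2 scale, and of these 4 genes mmp14b has its H3K4me3 over the start. The changes at 9 and 18 hpi share a control library.

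**Figure D5:**
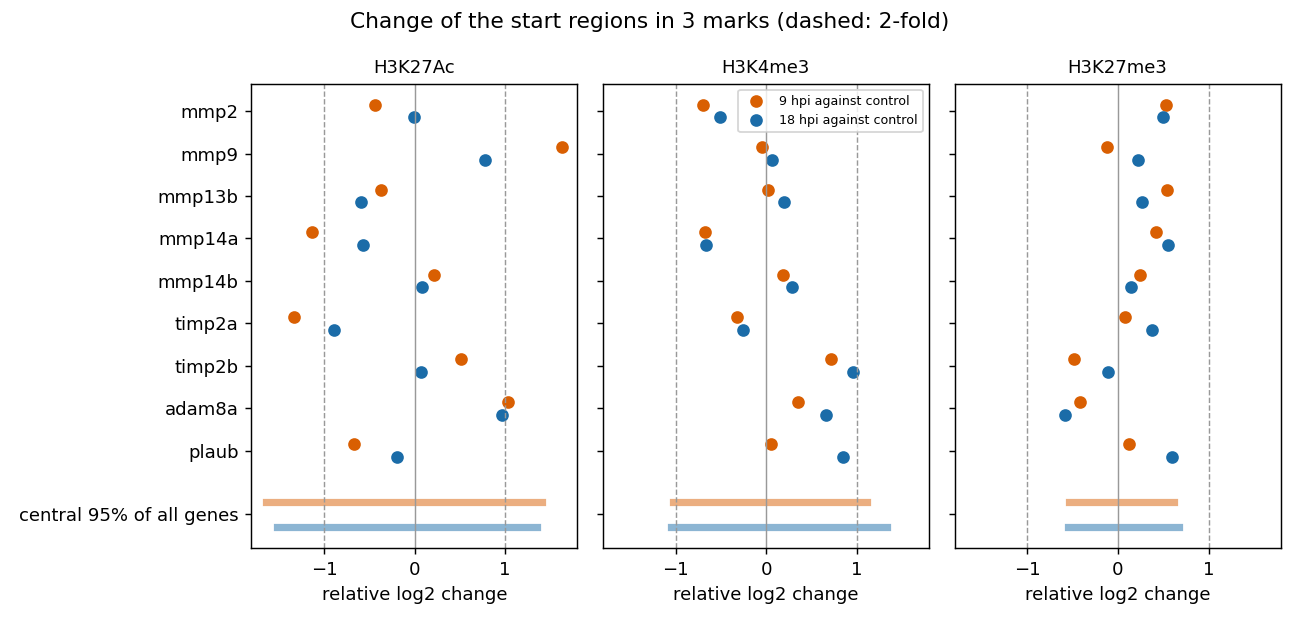
Relative log2 change (horizontal) at the start regions of the 9 genes (rows) in H3K27Ac, H3K4me3 and H3K27me3 at 9 hpi (orange) and 18 hpi (blue), with the central 95% of all genes as bars at the bottom. H3K27Ac ranges from −1.34 at timp2a to 1.63 at mmp9 at 9 hpi, while all points of H3K4me3 and H3K27me3 lie between the dashed 2-fold lines.

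The summed length of the called intervals within a start region was compared as well, a measure taken up after the values had been seen. In H3K4me3 it was at least 1.5 times as long as in control at adam8a (1.76 times at 9 hpi and 1.92 times at 18 hpi) and timp2b (1.77 and 1.69 times), and at mmp9 at 9 hpi (1.53 times) in its downstream region. Of all 18657 genes with H3K4me3 intervals at all 3 times, 12.7% lengthened this much at 9 hpi and 9.67% at 18 hpi. At mmp14a the H3K4me3 length was 4800 bp in control, 4400 bp at 9 hpi and 2600 bp at 18 hpi, a shortening by at least 1.5 times that 11.3% of genes had at 18 hpi and 7.39% at 9 hpi. In H3K27me3, mmp2 (2.06 and 1.59 times) and mmp13b (2.2 and 1.7 times) lengthened at both times, and mmp14a at 18 hpi (1.5 times), against 7.98% of 11862 genes at 9 hpi and 8.52% at 18 hpi. In H3K27Ac, adam8a lengthened 3.33 times at 9 hpi and 3.67 times at 18 hpi, timp2b 1.5 times at 9 hpi and mmp13b 2 times at 18 hpi in its distant region, against 11.8% and 31% of 16335 genes. mmp2 shortened in H3K27Ac at 9 hpi, with 9600 bp in control, 5400 bp at 9 hpi and 7800 bp at 18 hpi, where 21.1% of genes shortened at 9 hpi and 10.8% at 18 hpi. mmp9 shortened in H3K27me3 at 9 hpi, where 15.1% of genes shortened at 9 hpi and 13.8% at 18 hpi.

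Other genes of matrix proteolysis are given by list, with no test, beside the shares of all genes, which in H3K27Ac were 6.89% higher and 9.14% lower at 9 hpi and 6.79% and 7.78% at 18 hpi. The shares as deposited were 12.4% higher and 6.34% lower at 9 hpi and 4.56% and 10.4% at 18 hpi. Of 14 measured MMP genes outside the members, 3 were higher (mmp19, mmp28 and mmp25a) and 5 lower, among them mmp11b, mmp30 and mmp11a, with a median relative log2 change of −0.53; as deposited 3 were higher and 3 lower. mmp25a, a membrane-anchored MMP of leukocytes in mammals, had 14.4 in control muscle, 46.5 at 9 hpi and 27.4 at 18 hpi in a region 10228 bp upstream. mmp30 had 9.40 in control muscle, 3.38 at 9 hpi and 1.40 at 18 hpi at its start. The region of mmp11b lay 46495 bp from its start and that of mmp19 lay 17469 bp away. Of 10 inhibitor genes, 2 were higher (reck and serpine3) and 2 lower (serpinf2a and timp4a), with a median of 0.50. As deposited 3 were higher and 1 lower. The region of reck lay 24378 bp from its start and that of serpinf2a lay 14555 bp away. Of 24 ADAM and ADAMTS genes, 1 was higher (adam28) and 3 were lower (adamts2, adam15 and adam12), with a median of 0.10; as deposited 2 were higher and 2 lower. adamts2, whose enzyme trims procollagen, had 10.1 in control muscle, 3.99 at 9 hpi and 5.17 at 18 hpi. Of 10 genes of the plasminogen system, 1 was higher (pcsk5a) and 1 lower (hgfa), with a median of −0.18. The region of pcsk5a lay 37409 bp from its start. An interval was called in control only at mmp11b, mmp30, mmp11a, serpinf2a, timp4a, adamts2, adam15 and hgfa. It was called at 9 hpi only at mmp19, mmp28, serpine3 and pcsk5a, and reck had none in control. A low level where no interval was called comes with these regions being listed. Of 13 cathepsin genes, lysosomal proteases some of which are secreted, 5 were higher and none lower, with a median of 0.79 against 0.12 over all genes; as deposited 7 were higher and none lower. ctssa, a cathepsin S gene, had 11.8 in control muscle, 35.8 at 9 hpi and 25.2 at 18 hpi in a region 17296 bp from its start. ctssb.1 and ctssb.2, which share a region, had 6.89 in control muscle, 18.9 at 9 hpi and 13.6 at 18 hpi. The 13 cathepsin genes thus rest on 12 regions, and the shared region is counted as higher for both genes.

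At 18 hpi in H3K27Ac, 2 MMP genes were higher (mmp28 and mmp25a) and 3 lower (mmp30, mmp11b and mmp15a); as deposited 1 was higher and 4 lower. Among inhibitors reck, which encodes a membrane-anchored MMP inhibitor, was higher and serpinf2a was lower, both in the distant regions given above. The limits from listing given for 9 hpi hold for the same genes here. adam28 and adam11, the latter without an interval in control, were higher and adam12 was lower. As deposited 1 ADAM or ADAMTS gene was higher and 2 were lower. In the plasminogen system hgfa was lower and none higher, and 4 cathepsin genes were higher and none lower, of which 1 was higher as deposited. The shared region of ctssb.1 and ctssb.2 again counts for both genes. plaua, the other zebrafish urokinase gene, had 2.39 in control muscle, 6.19 at 9 hpi and 15.9 at 18 hpi in H3K4me3, with an interval at 18 hpi only. adam28 had 3.66 in control muscle, 9.75 at 9 hpi and 21.1 at 18 hpi in H3K4me3. In this mark both genes were lowest in control and highest at 18 hpi. In H3K4me3, 10 MMP, 7 inhibitor, 24 ADAM or ADAMTS, 11 plasminogen system and 12 cathepsin genes were measured. At 9 hpi mmp11a, mmp21, serpinf2a and adamts2 were lower and mmp28, adam28, plaua, ctssb.1 and ctssa higher. At 18 hpi mmp25a, adam28, plaua and ctssb.1 were higher and mmp21, adamts5 and adamts2 lower. Of all genes 3.24% were higher and 2.6% lower at 9 hpi, and 4.2% and 2.81% at 18 hpi. As deposited 1 cathepsin gene was higher at 9 hpi, and 4 ADAM or ADAMTS genes were lower at 18 hpi. Shares of all genes as deposited were not computed for H3K4me3. mmp28, adam28, plaua and ctssa had no interval in control and mmp21 had none after injury. H3K27me3 passed 2-fold at none of the measured genes of these lists at 9 or 18 hpi.

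Markers of other cell types were counted in the same way, beside the same shares of all genes: 6.89% higher and 9.14% lower in H3K27Ac at 9 hpi, 6.79% and 7.78% at 18 hpi, and 3.24% and 2.6% in H3K4me3 at 9 hpi and 4.2% and 2.81% at 18 hpi. In these pooled tissues a changed share of a cell type and a changed mark within its cells cannot be told apart. Of 14 measured genes of macrophages and other leukocytes, 7 were higher and 1 lower in H3K27Ac at 9 hpi, and 3 higher and 1 lower at 18 hpi, and their summed average pileup was 185 in control muscle, 353 at 9 hpi and 212 at 18 hpi. Of the higher genes, marco, mfap4, spi1b and fcer1gl had no interval in control. A low control level thus comes with their being listed. The 7 measured neutrophil genes of 12 had 2 higher and 1 lower at 9 hpi, none higher and 1 lower at 18 hpi, and sums of 88.1, 131 and 84.7. The lower gene, cybb, had an interval in control only, in a region 6549 bp from its start. The H3K27Ac regions of mpx, npsn and cpa5 lay 16855, 10146 and 6004 bp from their starts. No region was named for lyz, cxcr1, cxcr2, il8 and mmp25b. These sums and the start regions of mmp9 and adam8a were highest at 9 hpi. So were the start regions of mmp14b and timp2b and the endothelial and epidermal sums given below. The sums are as deposited, and the median log2 change of all kept H3K27Ac regions was 0.23 at 9 hpi and −0.35 for 18 against 9 hpi. On the deposited scale a highest level at 9 hpi was thus found outside the leukocyte lists too. The median relative log2 change at 9 hpi was 0.95 for macrophage and leukocyte genes and 0.51 for neutrophil genes. It was 0.096 for endothelial and 0.24 for epidermal genes, −1.08 for fibroblast and tendon genes and −1.22 for muscle fibre genes. Over all genes it was 0.12. Of 10 measured fibroblast and tendon genes, 5 were lower and 1 higher at 9 hpi, 4 and 1 at 18 hpi in H3K27Ac, and the sums were 185 in control muscle, 96.7 at 9 hpi and 99.1 at 18 hpi. That order, highest in control and lowest at 9 hpi, is also the one of the H3K27Ac start regions of mmp2, mmp14a, timp2a and plaub. The start region of mmp13b and the muscle fibre sums were highest in control and lowest at 18 hpi. Of the fibroblast and tendon genes pdgfra fell most, with 13.7 in control muscle, 2.39 at 9 hpi and 3.71 at 18 hpi. Its region lies 6728 bp upstream and had an interval in control only. scxa went the other way, with 3.77 in control muscle, 10.9 at 9 hpi and 18.5 at 18 hpi, and an interval at 18 hpi only. The muscle fibre genes, which mark the labelled tissue, had 11 of 19 lower at 9 hpi and 12 at 18 hpi, with sums of 346, 199 and 138. Of the lower genes, acta1a, acta1b and tnnc2 had an interval in control only. In H3K4me3, 7 of 13 macrophage and leukocyte genes were higher at 9 hpi and 9 at 18 hpi. Among those higher at 9 hpi, mpeg1.1, csf1ra, marco, spi1a and fcer1gl had no interval in control. Of 7 neutrophil genes, csf3r, ncf1 and cybb were higher in H3K4me3 at both times and none was lower. There cybb had 5.67 in control muscle, 20.3 at 9 hpi and 15.99 at 18 hpi. csf3r and ncf1 had no H3K4me3 interval in control. The sums of the macrophage and leukocyte genes were 198 in control muscle, 262 at 9 hpi and 288 at 18 hpi. The start regions of adam8a, timp2b and mmp14b had the same order. So had the H3K4me3 sums of neutrophil genes, with 139 in control muscle, 177 at 9 hpi and 189.7 at 18 hpi, and of endothelial genes, with 108 in control muscle, 136 at 9 hpi and 159.7 at 18 hpi. The neutrophil sums include distant regions of mpx, npsn and cpa5, 14155, 10246 and 5204 bp from their starts. These had 49.7, 38.2 and 24.6 in control muscle. The other H3K4me3 sums, in control, at 9 hpi and at 18 hpi, were highest in control. They were 298, 143 and 163 for muscle fibre genes and 233, 149 and 166 for fibroblast and tendon genes. For epidermal genes they were 176, 171 and 158. In H3K27Ac, endothelial genes had none of 10 past 2-fold at 9 hpi and 2 higher at 18 hpi, with sums of 107, 135 and 94.0. Epidermal genes had 2 of 7 higher in H3K27Ac at 9 hpi and 3 at 18 hpi, with sums of 84.3, 130 and 111. Of the higher genes, the epidermal cdh1 and the endothelial erg had no interval in control. As deposited no endothelial and 1 epidermal gene was higher in H3K27Ac at 18 hpi, against 4.56% of all genes. No measured marker was at 0 in any library. The part of these cell types in the changes at the members was not tested.

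The genes whose 6 values in H3K27Ac and H3K4me3 lay nearest those of a member were found by Euclidean distance of log2(average pileup + 1) among 20202 genes, leaving out genes that share a region with it. Nearest to mmp9 was zgc:172120 (distance 0.58), with H3K27Ac of 2.095 in control muscle, 8.79 at 9 hpi and 3.55 at 18 hpi. Its H3K4me3 was 37.5 in control muscle, 55.9 at 9 hpi and 61.5 at 18 hpi. The H3K4me3 of mmp9, in a region 14813 bp downstream of its start, was 52.6, 48.8 and 53.7. Nearest to adam8a was gnsb (0.20), with 11.6, 29.3 and 20.4 in H3K27Ac, and nearest to timp2b was gbp1 (0.33). vasna and f2r lay nearest to mmp14a (0.34 each) and LOC101882464 to mmp2 (0.29). LOC103911851 (0.29) and pdgfbb (0.41) lay nearest to timp2a, pan2 to mmp13b (0.27), LOC100537139 and bmp7a, which share their regions, to mmp14b (0.17 each), and olfml1 to plaub (0.71). The distances say how close 6 values are in 6 libraries and nothing of the genes' roles.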

How the data were processed

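The submitters' processing notes name BWA, MACS2 2.1.0, SICER 12.1 and the build danRer10, without saying which caller made which list. The authors deposited signal: the average and maximum tag pileup of each library over called intervals and over regions merged from the intervals of a mark's 3 libraries, without a stated normalization between libraries. Other deposited columns give 0 or 1 for the presence of an interval. The input library was not used. Start regions were compared by log2((average + 1)/(average + 1)), less the median of the regions at or above the 25th percentile of mean signal; the pseudocount of 1 understates changes of weak regions. Genes were not filtered on signal; 7 of the 9 H3K27Ac start regions of the members would pass that filter. The calculation was tested on simulated data. Region distances run from the region's middle and interval distances from the summit, and gene starts are those the distances imply. Coordinates count from 1. List genes were matched by symbol or by synonym in RefSeq's gene table. With 1 library per mark and time there is no test and no error. Depth is unknown, so no precision can be given. The members and lists were chosen with earlier results of these data known. All members are described, and of each list at most 3 genes past 2-fold in each direction were to be named; a gene of these lists is not reported here. Python 3.11.15, pandas 2.3.3 and matplotlib 3.10.9 were used. Sequences of the promoters were not used here.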

Additional observations from a re-analysis of the deposited data

Results flagged for a closer look

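At 1 region of the members the relative changes at 9 and 18 hpi had opposite signs and differed by at least 2-fold. The H3K27Ac region inside mmp2, 20941 bp from its start (chromosome 7, 35139001 to 35141800), had a relative log2 change of −1.13 at 9 hpi and of 0.028 at 18 hpi, with an interval called in control only. As deposited the changes were −0.90 and −0.13, of the same sign and less than 2-fold apart. The difference was not tested, since each time had 1 library and both changes share the control.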

How the results depend on the processing

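No paired analysis was possible because each mark had 1 library per time and no replicate. Of 162 counts of members under alternative settings, 138 stayed within 1.5 times of the reported count and 24 did not. For H3K27Ac at 9 hpi, the reported counts were 2 higher and 2 lower. They were 0 and 1 with a pseudocount of 5, 2 and 1 without centring, 1 and 0 with the highest region of each gene and 1 and 2 with maximum pileups. They were 0 and 0 within 1000 bp, where 1 gene was left, and 1 and 2 with the 25th percentile filter, which removed mmp9. With the highest region of the gene, the relative log2 change of mmp14a at 9 hpi was 0.14, against −1.13, because a region 37975 bp away then stood for the gene. For H3K27Ac at 18 hpi, the reported 0 and 0 became 1 higher with a pseudocount of 0.1 or maximum pileups, 1 lower without centring, and 2 higher and 2 lower at 1.5-fold. For 18 against 9 hpi, 1 was lower with a pseudocount of 0.1, without centring or at 1.5-fold. At 1.5-fold, H3K4me3 gave 1 higher and 2 lower at 9 hpi, 3 higher and 1 lower at 18 hpi and 1 higher for 18 against 9 hpi, and H3K27me3 gave 1 higher at 18 hpi. Shares of all genes past 1.5-fold were not computed, so the 1.5-fold counts cannot be set beside all genes. With a pseudocount of 0.1, H3K4me3 gave 1 higher at 18 hpi, plaub. Start regions within 5000 bp left every count of 2-fold changes as reported.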
